A study of Oryza sativa with 6 samples.

Results

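Antisense-OsPDCD5 transgenic leaves were compared with nontransgenic leaves before any salt was given. The comparison rests on 2 of the 6 Affymetrix rice arrays of the series and covers all 57258 rice probe sets, with the control probe sets left out. The transgenic seedlings were Zhonghua 11, a rice cultivar, carrying an antisense construct against OsPDCD5, and the nontransgenic controls were Zhonghua 11 without it. Both were 2 weeks old, were raised in Murashige and Skoog medium under white light, and had received no NaCl. RNA came from leaves of 10 pooled plants per genotype, and each pool gave 1 array. The other 4 arrays hold the same 2 genotypes after 20 min and 3 h in 200 mM NaCl, and they are used below to see which differences appear again. The promoter of the construct and the number of transformation events are not given in the sources used here.

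PDCD5 is a conserved protein that takes part in programmed cell death in animals, and plants have homologues of it. Antisense RNA pairs with a messenger RNA and can lower its level. Rice leaves make diterpenoid phytoalexins (momilactones, phytocassanes and oryzalexins), phenylpropanoids and pathogenesis-related proteins when attacked, while the bulk of leaf messenger RNA serves photosynthesis. The annotation used ties none of the probe sets to OsPDCD5, so its signal is not analysed here and gave no check of the labels.

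With 1 array on each side, the difference between the genotypes has no replicate check and no test was possible. Values are MAS5 signals, the array maker's summary of probe brightness, and a difference is log2(signal + 16) in transgenic leaves minus log2(signal + 16) in nontransgenic leaves. A difference of at least 1 in size is called 2-fold below, and one of at least 2 is called 4-fold. The added 16 damps differences near background, so where 1 of the signals lies near or below 16 the size of the difference depends on that number. In bulk leaf RNA, fewer cells of a type and less RNA per cell cannot be told apart. Any lasting difference between the 2 sets of seedlings other than the construct cannot be told apart from it either.

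The array of nontransgenic leaves before NaCl stood apart from the other 5 in 1 measure of RNA quality. Its ratio of actin 3′ to actin 5′ signal was 63.0, against 25.2 on the transgenic array of the same stage and 18.0 to 29.5 on the 4 later arrays. Its actin 5′ signal was 89.6. Its ratio of actin 3′ to middle signal was 3.75, within the range of 3.17 to 4.17 on the other 5. Its median log2 signal was 4.94, the lowest of the 6, while the transgenic array had 5.16. The 18S ribosomal RNA probe set read 17908 in transgenic and 10988 in nontransgenic leaves, and was higher in transgenic leaves at the later stages too. The part of these differences in the results was not tested. For this reason the main results are given beside the genotype difference at 20 min and 3 h, which uses none of the arrays from before NaCl.

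Of the 57258 probe sets, 4843 (8.46%) were at least 2-fold higher in transgenic leaves and 3789 (6.62%) at least 2-fold lower. At 4-fold the balance turned, with 478 (0.835%) higher and 747 (1.3%) lower. Across probe sets, which are not independent replicates, the 2 arrays correlated at r = 0.955, the median difference was 0.05 and the differences ranged from -10.26 to 7.86. The excess of higher probe sets lay among dim ones. Where the brighter signal lay between 16 and 100, 3298 probe sets were 2-fold higher and 1872 were 2-fold lower, and where it was at least 2000 the counts were 368 higher and 399 lower. The balance at 2-fold also turned with the scaling: quantile normalization of the arrays gave 4331 higher and 4511 lower, and adding 64 in place of 16 gave 1229 higher and 1586 lower. Probe sets with a brighter signal under 16 could not reach 2-fold, and there were 15255 of them.

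**Figure D1:**
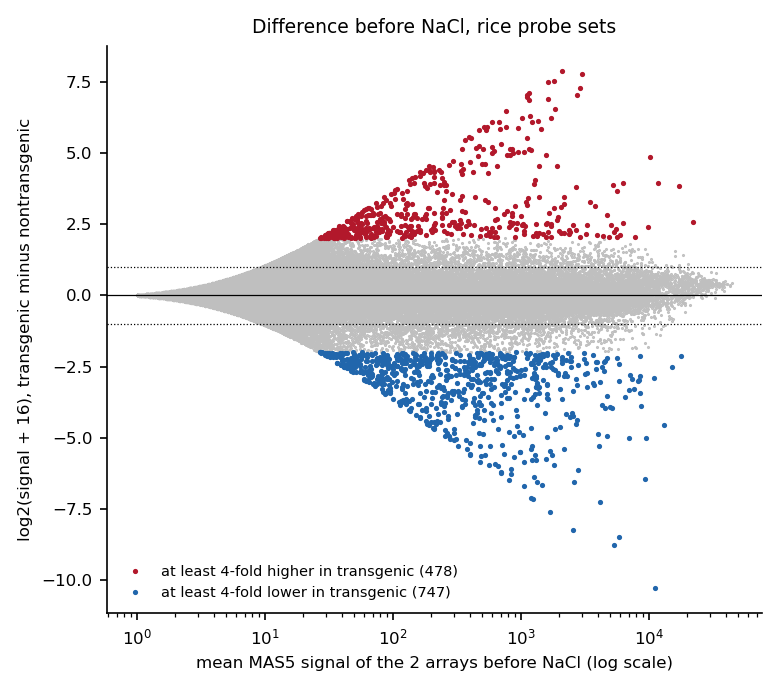
Difference in log2(signal + 16), transgenic minus nontransgenic, before NaCl (vertical axis) against the mean MAS5 signal of the 2 arrays (horizontal axis, log scale), 1 point for each of 57258 rice probe sets. Red points are the 478 at least 4-fold higher in transgenic leaves, blue points the 747 at least 4-fold lower, and dotted lines mark 2-fold. The funnel shape at low signal comes from the added 16.

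Most results below are counted over genes, each with 1 probe set. The 22436 probe sets with a single gene stood for 17905 genes, of which 1007 (5.62%) were 2-fold higher in transgenic leaves and 1472 (8.22%) 2-fold lower. At 4-fold, 140 genes (0.782%) were higher and 394 (2.2%) lower, so at this size lower genes outnumbered higher ones. The 34727 probe sets with no gene in the annotation did not share this imbalance, with 289 at least 4-fold higher and 282 at least 4-fold lower. Among 13336 genes whose brighter signal reached 100, 617 (4.63%) were 2-fold higher and 1138 (8.53%) 2-fold lower, and 120 (0.9%) were 4-fold higher and 365 (2.74%) 4-fold lower. The genes with the largest differences, described first, come from these 13336, while some members of gene lists and chromosome groups named further on lie under that signal. Of 337 genes that differed 2-fold and had several probe sets, 254 (75.4%) had the same sign in every probe set.

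Large differences of bright genes mostly appeared again at the later stages. Of the 120 genes at least 4-fold higher before NaCl, 75 (62.5%) were again 4-fold higher at 20 min, 65 (54.2%) at 3 h and 58 at both. Over all 13336 genes, 0.697% were 4-fold higher at 20 min and 0.667% at 3 h. Of the 365 genes at least 4-fold lower, 197 (54.0%) were again 4-fold lower at 20 min, 216 (59.2%) at 3 h and 149 at both, beside 1.96% and 2.19% of all 13336. Read the other way, these shared genes were 80.6% and 73.0% of the 93 and 89 genes 4-fold higher at 20 min and 3 h, and 75.2% and 74.0% of the 262 and 292 genes 4-fold lower. The same sign was kept by 116 and 112 of the 120 higher genes at 20 min and 3 h, and by 353 and 358 of the 365 lower genes.

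Dim probe sets showed smaller shares. Over all 57258 probe sets, 6.71% were 2-fold higher and 8.05% lower at 20 min, and 5.71% were higher and 10.1% lower at 3 h. Of probe sets with a brighter signal from 16 to 100, 12.8% of those 2-fold higher were 2-fold higher again at 20 min and 10.6% at 3 h. At signals of at least 2000 the shares were 64.7% and 48.1%. For 2-fold lower probe sets the shares were 20.3% and 22.4% in the dim range and 63.9% and 59.1% in the bright one. Over all 57258 probe sets the difference before NaCl correlated with that at 20 min at r = 0.508 and with that at 3 h at r = 0.466, and over the 21996 with a brighter signal of at least 100 before NaCl at r = 0.846 and r = 0.798. These are descriptions across probe sets, which share their arrays, and the 3 stages are not replicates of genotype.

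**Figure D2:**
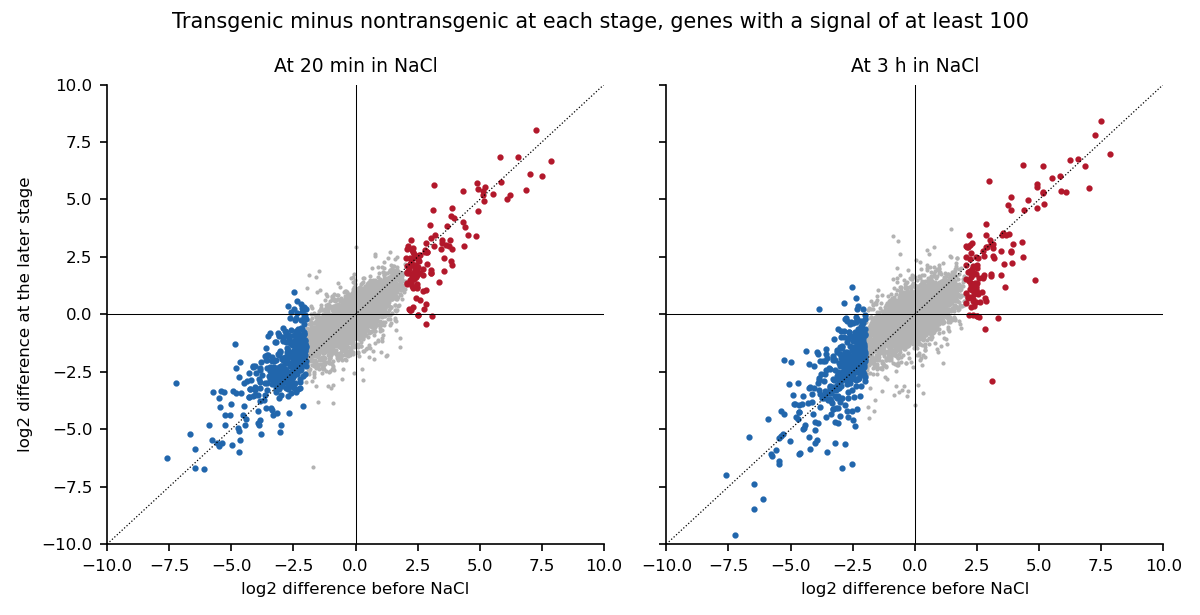
Difference between transgenic and nontransgenic leaves before NaCl (horizontal axes) against the difference at 20 min (left) and at 3 h (right) in NaCl, all in log2(signal + 16), for 13336 genes with a signal of at least 100 before NaCl. Red points are the 120 genes at least 4-fold higher before NaCl and blue points the 365 at least 4-fold lower; 116 red and 353 blue points keep their sign at 20 min, and the dotted line marks equal differences.

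Among genes with a curated name, the largest difference upwards was that of OsC3H40, which encodes a CCCH-type zinc finger protein. The signal of OsC3H40 was 4225, 3872 and 4236 in transgenic leaves at the 3 stages, against 2.23, 22.2 and 17.5 in nontransgenic leaves, a log2 difference of 7.86 before NaCl. In transgenic leaves ATG8D read 1681, 1368 and 2136 before NaCl, at 20 min and at 3 h, and in nontransgenic leaves it read 31.8, 28.9 and 8.27, a difference of 5.15. ATG8 proteins are ubiquitin-like and are coupled to the membrane of the forming autophagosome. In both genes all 3 nontransgenic signals were close to background and all 3 transgenic ones were far above it.

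METK3, which encodes an S-adenosylmethionine synthase, had the same form. Transgenic signals of METK3 were 1597, 1644 and 1429 in order of stage, and nontransgenic signals were 37.3, 22.0 and 12.6, a difference of 4.92. The small heat shock protein gene HSP16.0 followed it. HSP16.0 had signals of 822, 898 and 2128 in transgenic leaves before NaCl, at 20 min and at 3 h, against 25.6, 6.28 and 7.51 in nontransgenic leaves, differences of 4.33, 5.36 and 6.51 at the 3 stages. Its nontransgenic signals lay at or near background at every stage.

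BURP2 and CRSH2 were higher in transgenic leaves and had signals above 500 in both genotypes. BURP2 encodes a protein with a BURP domain, a plant-specific C-terminal domain, and CRSH2 a calcium-activated synthase of the chloroplast alarmone ppGpp. The signal of BURP2 was 19921, 25644 and 10744 in transgenic leaves at the 3 stages, against 673, 2386 and 3853 in nontransgenic leaves, and the differences were 4.86, 3.42 and 1.48. In transgenic leaves CRSH2 read 10472, 13752 and 4191 before NaCl, at 20 min and at 3 h, and in nontransgenic leaves it read 822, 1663 and 1809.7, with differences of 3.65, 3.04 and 1.20. For both genes the nontransgenic signal was lowest before NaCl and the transgenic one lowest at 3 h, and the genotypes did not overlap at any stage.

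The sugar transporter gene SWEET1A and the Alfin-like gene AL1, whose family encodes plant PHD-finger proteins, were also higher and bright. Transgenic signals of SWEET1A were 5567, 4514 and 2580.0 in order of stage, and nontransgenic signals were 985, 1273 and 1247, differences of 2.48, 1.81 and 1.04. AL1 had signals of 3302, 3338 and 1773 in transgenic leaves before NaCl, at 20 min and at 3 h, against 679, 1076 and 690.2 in nontransgenic leaves, differences of 2.26, 1.62 and 1.34. The probe set used for AL1 is open to cross-hybridisation. OsC3H35, another CCCH zinc finger gene, had differences of 2.49, 1.30 and 1.37. Probe sets of a gene did not always give 1 size: those of SWEET1A ranged from 0.58 to 2.48 and those of OsC3H35 from 0.73 to 2.49.

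PHP5, a pseudo histidine phosphotransfer gene of the cytokinin relay family, and KIN14K, a kinesin gene, were higher, with differences of 2.50 and 2.06 before NaCl. The signal of PHP5 was 1782, 2303 and 1281 in transgenic leaves at the 3 stages, against 301, 399.9 and 300.4 in nontransgenic leaves. In transgenic leaves KIN14K read 2530.0, 3060.0 and 2605 before NaCl, at 20 min and at 3 h, and in nontransgenic leaves it read 596, 696 and 568. The identifiers of their probe sets name the same transcript cluster and that of KIN14K is marked as open to cross-hybridisation, so the 2 may not be separate measurements. OsCASPL1C1, of the CASP-like membrane protein family, was higher, with differences of 2.85, 1.04 and 2.95 at low signals of 148, 102 and 314 in transgenic and 6.71, 41.4 and 26.8 in nontransgenic leaves.

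Downwards, the largest difference of a gene with a curated name was that of pinA, matched to the seed markers by its name, which it shares with the puroindolines of wheat grain. Transgenic signals of pinA were 196, 254 and 141 in order of stage, and nontransgenic signals were 18545, 15773 and 26185, a difference of -6.45. The next gene along chromosome 1 in the array's set, RBTI, a Bowman-Birk trypsin inhibitor, was lower, with a difference of -4.99. RBTI had signals of 414, 198 and 4777 in transgenic leaves before NaCl, at 20 min and at 3 h, against 13654, 10999 and 20151 in nontransgenic leaves. Both stayed at least 4-fold lower in transgenic leaves at every stage.

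Several of the other lower genes belong to the phenylpropanoid and diterpenoid groups described further on. Outside them, the largest was NAC45, of the NAC family of transcription factors. The signal of NAC45 was 48.6, 71.1 and 72.2 in transgenic leaves at the 3 stages, against 905, 1172 and 966 in nontransgenic leaves, differences of -3.83, -3.77 and -3.48. The ammonium transporter gene AMT3-2 was lower, with a difference of -3.24, on a probe set open to cross-hybridisation. In transgenic leaves AMT3-2 read 247, 260.3 and 337 before NaCl, at 20 min and at 3 h, and in nontransgenic leaves it read 2466, 1712 and 2544. The gene named Aconitase, whose enzyme interconverts citrate and isocitrate, was lower, with differences of -3.23, -2.80 and -2.42, and read 243 in transgenic and 2402 in nontransgenic leaves before NaCl.

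ABCG48, an ABC transporter gene of the G subfamily, moved with the stage as well. Transgenic signals of ABCG48 were 106, 17.4 and 24.5 in order of stage, and nontransgenic signals were 1118, 115 and 1952, differences of -3.22, -1.97 and -5.60. Its nontransgenic signal at 20 min was close to the transgenic one before NaCl. GBSS1, granule-bound starch synthase, was lower, with a difference of -3.56 on its brightest probe set, which is open to cross-hybridisation, but its 6 probe sets ranged from -3.56 to 0.19.

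**Figure D3:**
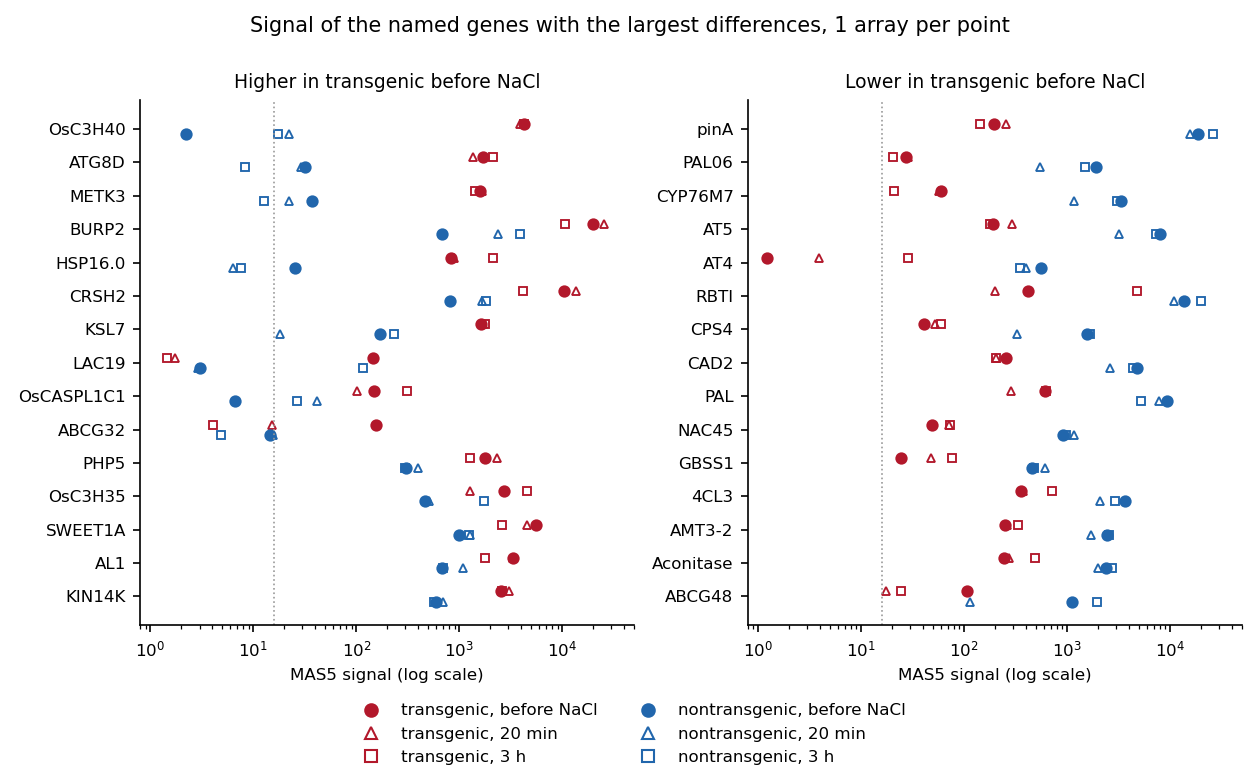
MAS5 signal (log scale) on each of the 6 arrays for the 15 named genes with the largest differences upwards (left) and downwards (right) before NaCl. Red marks transgenic and blue nontransgenic leaves, filled circles the arrays before NaCl, open triangles 20 min and open squares 3 h; the dotted line marks a signal of 16. All 3 red points lie to the right of all 3 blue ones for each gene on the left except LAC19, ABCG32 and OsC3H35, and to the left of them for each gene on the right.

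Genes with no curated name are given by identifier, and the 6 with the largest difference in each direction follow. Upwards these were LOC4334900 (7.51), LOC4340976 (7.26), LOC4350802 (7.02), LOC4341223 (6.85), LOC4350879 (6.55) and LOC4325213 (6.22). LOC4340976 had signals of 5804, 5355 and 7063 in transgenic leaves before NaCl, at 20 min and at 3 h, against 22.0, 4.89 and 15.3 in nontransgenic leaves. The signal of LOC4334900 was 3603, 4073 and 10576 in transgenic leaves at the 3 stages, against 3.92, 46.6 and 15.1 in nontransgenic leaves. All 6 had signals below 50 on every nontransgenic array and far above it on every transgenic one. The 3 probe sets of LOC4350802 disagreed, from -1.97 to 7.02, and the brightest of them is open to cross-hybridisation.

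Downwards the 6 were LOC4326000 (-7.61), LOC4348445 (-7.24), LOC4347323 (-6.66), LOC4340994 (-6.48), LOC4345406 (-6.12) and LOC4328950 (-5.91). In transgenic leaves LOC4326000 read 1.31, 1.46 and 11.8 before NaCl, at 20 min and at 3 h, and in nontransgenic leaves it read 3356, 1335 and 3553. Transgenic signals of LOC4348445 were 38.7, 176 and 2.36 in order of stage, and nontransgenic signals were 8249, 1504 and 14326. LOC4340994 had signals of 2.38, 1.54 and 1.83 in transgenic leaves before NaCl, at 20 min and at 3 h, against 1619.8, 1773 and 6406 in nontransgenic leaves. Each of the 6 stayed at least 4-fold lower in transgenic leaves at both later stages. The probe set used for LOC4328950 is open to cross-hybridisation.

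Such on or off patterns were counted over all genes with a signal of at least 100. In 22 genes the signal was at least 500 in transgenic and below 50 in nontransgenic leaves before NaCl, and 17 of them met the same limits at all 3 stages. In 32 genes it was below 50 in transgenic and at least 500 in nontransgenic leaves, and 14 of them did so at all 3 stages.

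Among bright genes, few 4-fold differences were seen before NaCl alone by the limit used here. Of the 120 genes at least 4-fold higher before NaCl, 3 differed by less than 1.5-fold at both later stages. Of the 365 at least 4-fold lower, 2 did. The higher ones were ABCG32, an ABC transporter gene, with LOC4341430 and LOC4344680. The signal of ABCG32 was 156, 15.2 and 4.02 in transgenic leaves at the 3 stages, against 14.4, 15.6 and 4.82 in nontransgenic leaves, so the transgenic array before NaCl was alone in reading above 16. In transgenic leaves LOC4344680 read 243, 44.9 and 55.6 before NaCl, at 20 min and at 3 h, and in nontransgenic leaves it read 40.4, 37.9 and 57.0. The lower ones were LOC4344557 (-2.34, against 0.07 and 0.24 later) and LOC4325572 (-2.07, against -0.43 and -0.39). Transgenic signals of LOC4344557 were 118, 147 and 147 in order of stage, and nontransgenic signals were 667, 139 and 122, so here the nontransgenic array before NaCl stood above the other 5. Over all probe sets the counts were 38 of 478 higher and 14 of 747 lower ones. Both directions together gave 52, a count that became 786 with 1 added in place of 16 and 2 with 64 added.

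Diterpenoid phytoalexins are made from geranylgeranyl diphosphate by copalyl diphosphate synthases (CPS), kaurene synthase-like enzymes (KSL) and cytochrome P450 enzymes (CYP). Of 20 genes of this pathway measured, 9 were 2-fold lower and 2 were 2-fold higher in transgenic leaves, with a median of -0.65, beside 8.22% lower and 5.62% higher and a median of -0.02 over all genes. The list's median was -0.54 at 20 min and -2.70 at 3 h, where 8 and 12 members were 2-fold lower and 4 and 2 were higher. Over all genes, 8.31% were 2-fold lower and 4.63% higher at 20 min, and 8.57% were lower and 4.19% higher at 3 h. The cyclase gene of the momilactone branch, CPS4, was lower, with a difference of -4.80. CPS4 had signals of 41.0, 51.6 and 60.3 in transgenic leaves before NaCl, at 20 min and at 3 h, against 1572, 327 and 1662 in nontransgenic leaves. The gene listed as CYP76M7, the name of a P450 of the phytocassane branch, was lower, with a difference of -5.47. The signal of CYP76M7 was 59.6, 57.3 and 21.0 in transgenic leaves at the 3 stages, against 3328, 1174 and 3084 in nontransgenic leaves.

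The nontransgenic signals of both were lowest at 20 min. The exceptions upwards were KSL7, the synthase of the phytocassane precursor ent-cassadiene, and CYP71Z6, a P450 of the same gene group. In transgenic leaves KSL7 read 1630.0, 1693 and 1793 before NaCl, at 20 min and at 3 h, and in nontransgenic leaves it read 171, 18.1 and 232, differences of 3.14, 5.65 and 2.86. Transgenic signals of CYP71Z6 were 309, 229.5 and 166 in order of stage, and nontransgenic signals were 76.9, 70.0 and 232, differences of 1.81, 1.51 and -0.44. Thus KSL7 was higher in transgenic leaves at each stage and CYP71Z6 at 2 of them.

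In rice, momilactone genes lie side by side on chromosome 4 and phytocassane genes on chromosome 2. The order of genes used here is that of the RefSeq assembly ASM3414082v1. In the chromosome 4 group, all 5 measured pathway genes were 2-fold lower before NaCl: CPS4, the P450 genes CYP99A3 (-2.94) and CYP99A2 (-2.82), the dehydrogenase gene OsMAS (-1.21) of the last step to momilactone A, and the syn-pimaradiene synthase gene KSL4 (-2.60). CYP99A3 had signals of 84.7, 85.3 and 53.5 in transgenic leaves before NaCl, at 20 min and at 3 h, against 755, 138 and 864 in nontransgenic leaves. The signal of KSL4 was 1.91, 2.72 and 1.8 in transgenic leaves at the 3 stages, against 92.3, 23.7 and 97.1 in nontransgenic leaves. The next measured gene on the CPS4 side, ARP9, for an actin-related protein, was lower, with differences of -2.01, -2.05 and -2.03. The next on the other side, LOC4335098, differed by -0.65, -0.41 and -0.03.

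The chromosome 2 group did not move as 1 block. CYP71Z7, a P450 that acts on ent-cassadiene, was lower, with differences of -2.92, -2.30 and -6.70, and lies 2 measured genes from KSL7. In transgenic leaves CYP71Z7 read 616, 129 and 47.2 before NaCl, at 20 min and at 3 h, and in nontransgenic leaves it read 4768, 699.6 and 6534. LOC4329723, the next measured gene beside KSL7, was lower, with a difference of -5.75. Transgenic signals of LOC4329723 were 41.8, 52.6 and 18.0 in order of stage, and nontransgenic signals were 3095, 707 and 2445. CPS2, the ent-copalyl diphosphate synthase of the group, was level before NaCl at 0.02 but differed by 2.93 at 20 min and -3.94 at 3 h. CPS2 had signals of 460.1, 146 and 11.1 in transgenic leaves before NaCl, at 20 min and at 3 h, against 455, 5.17 and 401 in nontransgenic leaves. CYP76M8 (-0.99), CYP76M5 (-0.02), CYP76M6 (0.55) and KSL5 (0.94) were within 2-fold before NaCl. Later, CYP76M8 differed by -1.24 at 3 h and KSL5 by 1.61 at 20 min. The gene table lists CYP76M7 on chromosome 6, away from this group. Whether its value is that of the phytocassane P450 of this name was not settled.

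**Figure D4:**
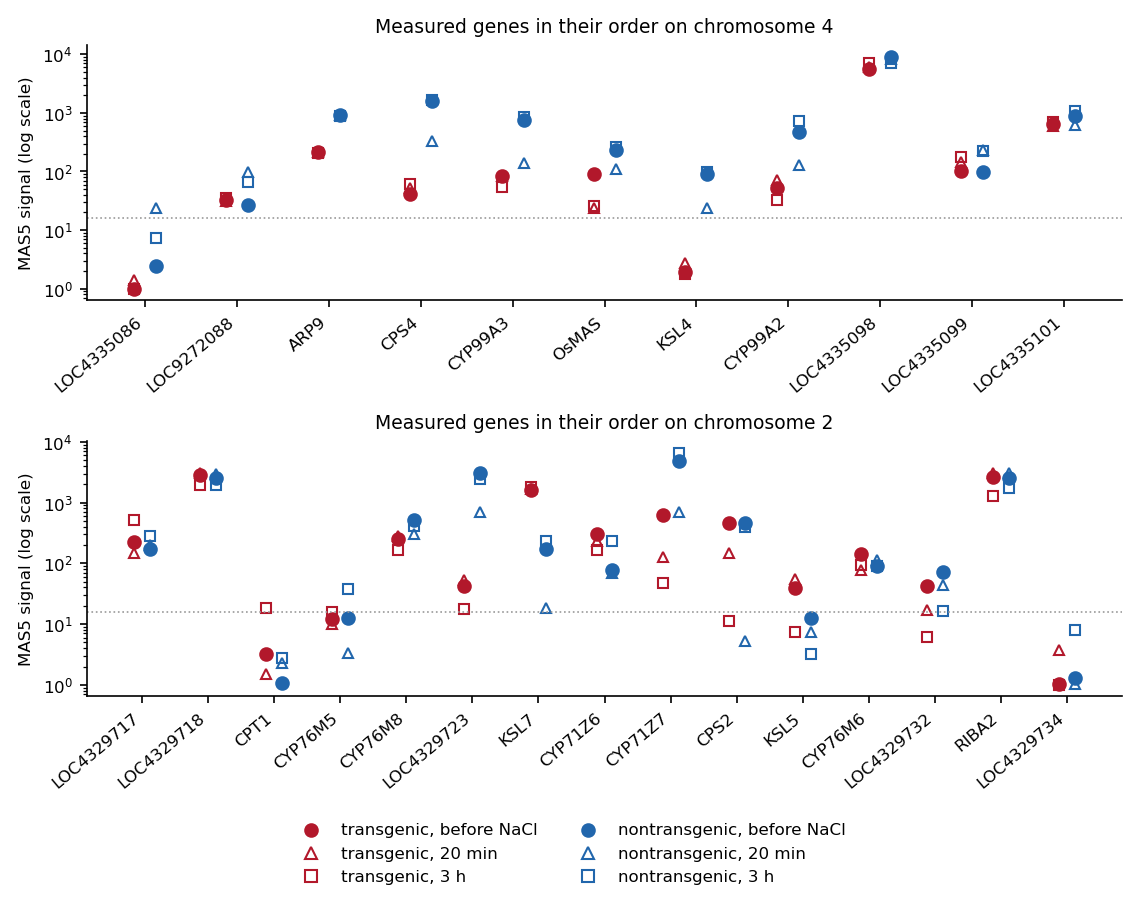
MAS5 signal (log scale) on each of the 6 arrays for measured genes in their order along chromosome 4 (top) and chromosome 2 (bottom), around the diterpenoid gene groups. Red marks transgenic (left of each pair) and blue nontransgenic leaves, filled circles the arrays before NaCl, open triangles 20 min and open squares 3 h. From ARP9 to CYP99A2 on chromosome 4 every red circle lies below its blue circle, while on chromosome 2 KSL7 and CYP71Z6 lie above and LOC4329723 and CYP71Z7 below.

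The phenylpropanoid pathway leads from phenylalanine to lignin and other phenolics. Of 32 genes measured, 11 (34.4%) were 2-fold lower and 2 (6.25%) were 2-fold higher, with a median of -0.52, beside 8.22% lower and 5.62% higher over all genes. At 20 min 11 were lower and 0 higher, beside 8.31% and 4.63% over all genes, and at 3 h 15 were lower and 1 higher, beside 8.57% and 4.19%. At the entry step, phenylalanine ammonia-lyase, PAL06 and PAL were lower, with differences of -5.49 and -3.91. The signal of PAL06 was 27.4, 28.8 and 20.6 in transgenic leaves at the 3 stages, against 1928, 551 and 1493 in nontransgenic leaves. In transgenic leaves PAL read 610.3, 286 and 630.5 before NaCl, at 20 min and at 3 h, and in nontransgenic leaves it read 9419.8, 7896 and 5179. The 5 probe sets of PAL ranged from -4.93 to -2.29, so all pointed the same way.

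At the next activating step, the 4-coumarate:CoA ligase gene 4CL3 was lower, with differences of -3.29, -2.43 and -2.01, and Os4CL5 was lower, with differences of -2.40, -0.18 and -2.82. Transgenic signals of 4CL3 were 360.0, 372 and 712 in order of stage, and nontransgenic signals were 3660.2, 2076 and 2914. The hydroxycinnamoyltransferase genes HCT1 and HCT2 were lower, with differences of -2.14 and -2.23. CAD2, a cinnamyl alcohol dehydrogenase of the last step to monolignols, was lower, with a difference of -4.12. CAD2 had signals of 257, 204 and 203 in transgenic leaves before NaCl, at 20 min and at 3 h, against 4729, 2591 and 4371 in nontransgenic leaves. The 2 genotypes were far apart at every stage.

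AT5 and AT4, acyltransferase genes of the BAHD family, some of whose members attach hydroxycinnamates to monolignols or cell wall sugars, were lower, with differences of -5.29 and -5.06. The signal of AT5 was 189.8, 293 and 179 in transgenic leaves at the 3 stages, against 8013, 3201 and 7295 in nontransgenic leaves. In transgenic leaves AT4 read 1.22, 3.87 and 28.5 before NaCl, at 20 min and at 3 h, and in nontransgenic leaves it read 557, 401 and 348. Other members were close to level, among them CAD3 (0.14), CAD1 (-0.06), 4CL2 (-0.15) and CCR1 (0.09). The 2 higher members, LAC19 (3.09) and LAC23 (1.05), encode laccases. Transgenic signals of LAC19 were 146, 1.72 and 1.46 in order of stage, and nontransgenic signals were 3.06, 2.93 and 115, so LAC19 read above 16 on 1 array of each genotype, at different stages. LAC23 had signals of 21.7 in transgenic and 2.24 in nontransgenic leaves and is named here after its values were seen.

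Pathogenesis-related proteins and protease inhibitors numbered 12 measured genes, of which 5 (41.7%) were 2-fold lower and 0 higher, beside 8.22% lower and 5.62% higher over all genes. Their median was -0.62 before NaCl, -1.46 at 20 min and -1.15 at 3 h. PBZ1, a probenazole-inducible protein of the PR10 family, was the brightest. PBZ1 had signals of 4494, 2297 and 319 in transgenic leaves before NaCl, at 20 min and at 3 h, against 25688, 20104 and 30779.6 in nontransgenic leaves, differences of -2.51, -3.12 and -6.52. The chitinase genes Cht11, CH16 and Cht3 were lower, with differences of -2.66, -1.83 and -1.80. The signal of Cht11 was 1210.2, 2024 and 1072 in transgenic leaves at the 3 stages, against 7708, 11527 and 7783 in nontransgenic leaves. Cht6 (0.07) and Cht2 (0.28) were close to level before NaCl, and Cht2 was lower, with differences of -2.40 and -2.19 at the later stages.

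Jasmonates are lipid hormones made through lipoxygenases (LOX), allene oxide synthase (AOS) and oxophytodienoate reductases (OPR), and JAZ proteins repress their signalling. Of 35 genes measured, 9 (25.7%) were 2-fold lower and 0 were 2-fold higher, with a median of -0.36, beside 8.22% lower and 5.62% higher over all genes. At 20 min the counts were 4 lower and 3 higher, with a median of -0.11, beside 8.31% and 4.63% over all genes. At 3 h 8 were lower and 0 higher, with a median of -0.50, beside 8.57% and 4.19% over all genes. The synthesis genes LOX9, LOX2.1 and OPR5 were lower, with differences of -2.99, -2.74 and -2.94. In transgenic leaves LOX9 read 321, 272 and 515 before NaCl, at 20 min and at 3 h, and in nontransgenic leaves it read 2656, 1338 and 1981. Transgenic signals of LOX2.1 were 568, 865 and 1593 in order of stage, and nontransgenic signals were 3872, 2849.5 and 1944. The 3 probe sets of LOX9 ranged from -2.99 to -0.96, and the 2 of OPR5 disagreed, at -2.94 and 0.75.

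The 3 JAZ repressor genes past 2-fold changed sign with the stage. JAZ9 differed by -1.44 before NaCl, 1.06 at 20 min and -1.71 at 3 h. JAZ10 (-1.23, 0.61 and -1.74) and JAZ12 (-1.03, 0.56 and -0.68) had the same form. The bright JAZ1 was level before NaCl at 0.26. Among 6 WRKY transcription factor genes measured, WRKY76 and WRKY62 were 2-fold lower before NaCl, beside 8.22% of all genes. WRKY76 had signals of 76.3, 786 and 46.7 in transgenic leaves before NaCl, at 20 min and at 3 h, against 498, 658 and 383 in nontransgenic leaves, differences of -2.48, 0.25 and -2.67. WRKY62 was lower, with differences of -1.44, -1.42 and -1.87.

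Chloroplast genes lay the other way. Before NaCl, 8730 of all 17905 genes had a difference above 0 and 9162 one below 0. All 11 measured genes of chlorophyll synthesis had a difference above 0 before NaCl, and 5 (45.5%) were 2-fold higher, with a median of 0.98, beside 5.62% 2-fold higher and a median of -0.02 over all genes. The median was 0.57 at 20 min and 0.35 at 3 h, where 1 gene was 2-fold higher at each stage. PPO, protoporphyrinogen oxidase, had differences of 1.58, 0.99 and 1.21. The signal of PPO was 985, 1379 and 912 in transgenic leaves at the 3 stages, against 319, 688 and 386 in nontransgenic leaves. CHLD, a subunit of the magnesium chelatase that commits the pathway to chlorophyll, differed by 1.05, 0.73 and 0.50.

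In transgenic leaves CHLD read 4299, 4642 and 2867 before NaCl, at 20 min and at 3 h, and in nontransgenic leaves it read 2074, 2797 and 2024. PORB, protochlorophyllide reductase, differed by 1.02, 0.78 and 0.45, and CHLG, chlorophyll synthase, by 1.01, 0.97 and 0.86. The probe set of PORB is open to cross-hybridisation. Transgenic signals of CHLG were 2505, 2954 and 2734 in order of stage, and nontransgenic signals were 1232, 1504 and 1494. The fifth member past 2-fold, PORA, had signals of 32.8 in transgenic and 6.51 in nontransgenic leaves and is named here after its values were seen. GluTR, glutamyl-tRNA reductase of the first committed step of tetrapyrrole synthesis, came close with 0.98. GluTR had signals of 8521, 8358 and 3462 in transgenic leaves before NaCl, at 20 min and at 3 h, against 4309, 5611 and 2484 in nontransgenic leaves. In each of PPO, CHLD, PORB, CHLG and GluTR the transgenic signal was the higher one at all 3 stages, and the difference was smaller at both later stages than before NaCl. These genes were picked for their large differences before NaCl, so the smaller later ones are not a separate result.

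The 3 photosystem and antenna genes measured, PSAH, PSAG and CAB2R, had a median of 0.52 before NaCl, 0.19 at 20 min and 0.04 at 3 h, and 0 of them passed 2-fold. With quantile normalization of the arrays the median before NaCl was 0.16. The signal of CAB2R was 39169, 42348 and 42213 in transgenic leaves at the 3 stages, against 27103, 37210.3 and 41024 in nontransgenic leaves. The nontransgenic signal of CAB2R, which encodes a chlorophyll-binding antenna protein, was thus lowest on the array before NaCl. The 9 Calvin cycle and photorespiration genes had a median of 0.40, 0.29 and 0.13 at the 3 stages. Before NaCl 8 of them lay above 0, beside 8730 of 17905 over all genes. GLO1 and GLO5, glycolate oxidase genes of photorespiration, had 0.63 and 0.73, and rca, Rubisco activase, had 0.42. The 3 probe sets of GLO5 ranged from -0.02 to 0.73. In transgenic leaves GLO5 read 30531, 26856 and 22681 before NaCl, at 20 min and at 3 h, and in nontransgenic leaves it read 18427, 20211 and 18949. Of 7 clock genes, 6 had a difference above 0, with a median of 0.42, again beside 8730 of 17905 over all genes. GI, for the clock protein GIGANTEA, had 0.85. The evening gene PRR1 (1.56) was the 1 member past 2-fold, beside 5.62% 2-fold higher over all genes. PRR1 had signals of 77.0 in transgenic and 15.5 in nontransgenic leaves and is named here after its values were seen.

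**Figure D5:**
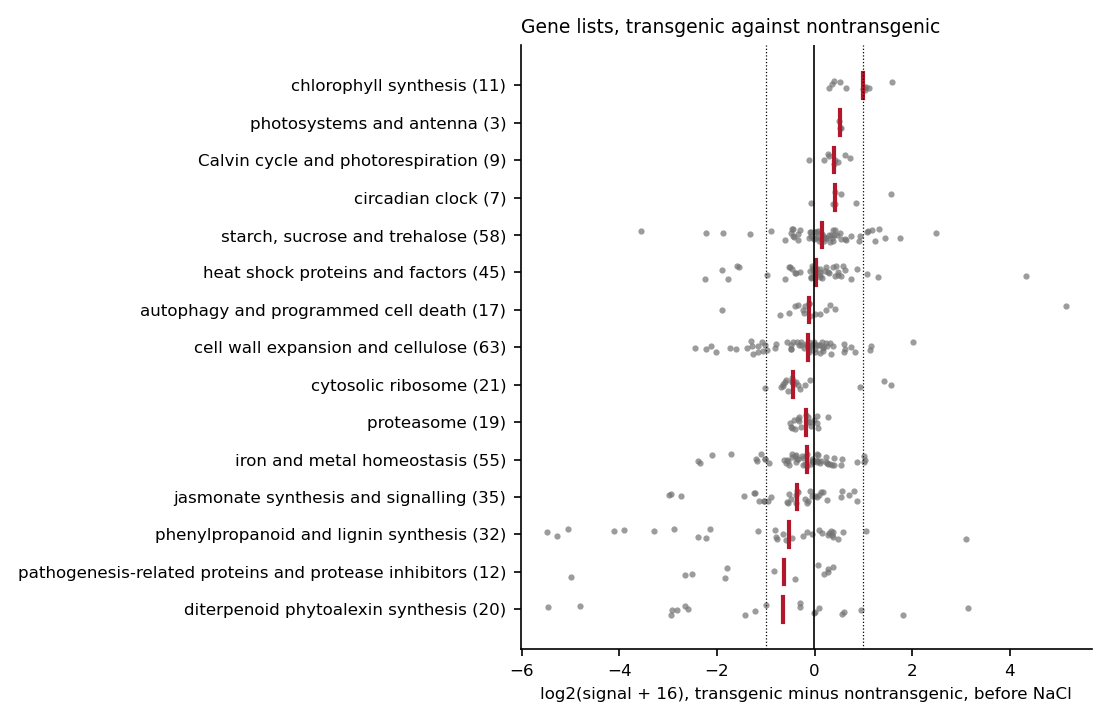
Difference in log2(signal + 16), transgenic minus nontransgenic, before NaCl, for the members of 15 gene lists, 1 grey point per gene, with the number of genes measured in brackets. Red bars are list medians, the black line is the median of all genes (-0.02) and dotted lines mark 2-fold. The 11 chlorophyll synthesis genes all lie above 0 with a median of 0.98, and the diterpenoid list has the lowest median of the 15, -0.65.

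Programmed cell death and autophagy genes, the processes nearest to the name of the construct's target, were mostly within 2-fold, the exceptions being ATG8D and HSF10. Of 17 measured, 1 (5.88%) was 2-fold higher and 1 (5.88%) was 2-fold lower, with a median of -0.11. Over all genes the shares were 5.62% higher and 8.22% lower, so these counts do not set the list apart. The lower gene was HSF10, a heat shock factor gene also known as SPL7, whose mutants form spotted leaves. Transgenic signals of HSF10 were 207, 391 and 256 in order of stage, and nontransgenic signals were 816, 812 and 843, differences of -1.90, -1.02 and -1.66. The other ATG8 genes measured, ATG8B (0.01) and ATG8C (-0.41), were within 2-fold before NaCl. So were ATG5 (-0.09), ATG12 (-0.20), the lesion regulator LSD1 (0.24) and BI-1, Bax inhibitor 1 (-0.35). DAD1, defender against apoptotic death and a subunit of the oligosaccharyltransferase, differed by -0.53.

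Most genes of the cytosolic ribosome and the proteasome lay slightly below 0. Of all 17905 genes, 9162 lay below 0 and 8730 above, with a median of -0.02. Of 21 genes matched by name to the cytosolic ribosome, 18 had a difference below 0, with a median of -0.44, -0.38 at 20 min and -0.24 at 3 h. The 3 above 0 were RPL18 (1.57), rpl5 (1.41) and RPL27 (0.94), of which the first 2 passed 2-fold, and RPL30 (-1.02) was 2-fold lower. Over all genes, 5.62% were 2-fold higher and 8.22% lower. RPL18 and RPL27 also carry the names CL18 and CL27, so the list may hold genes of the chloroplast ribosome. Which ribosome the 3 belong to was not checked. RPL18 had signals of 8659, 9732 and 8053 in transgenic leaves before NaCl, at 20 min and at 3 h, against 2914, 3846 and 3863 in nontransgenic leaves. Of 19 proteasome genes, 15 had a difference below 0 and 0 passed 2-fold, with a median of -0.18. PAE1, an alpha subunit of the core particle, was the farthest from 0 at -0.50. Of 10 genes matched by name to F-box, RING and other ubiquitin ligase parts, 5 lay above 0 and 5 below, 0 passed 2-fold and the median was -0.08. The lowest member, OSK24 (-0.79), also carries the kinase name SNRK1B. OSK24 and OSK3 (-0.60) may therefore not be ubiquitin ligase parts, and the probe set used for OSK3 is open to cross-hybridisation.

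Heat shock proteins and factors as a whole were level, with 3 of 45 measured genes (6.67%) 2-fold higher, 5 (11.1%) lower and a median of 0.03, beside 5.62% higher and 8.22% lower over all genes. The small heat shock protein genes split: HSP16.0 stood at 4.33, while HSP16.9B stood at -2.24. The signal of HSP16.9B was 27.6, 40.4 and 25.6 in transgenic leaves at the 3 stages, against 189, 224 and 129 in nontransgenic leaves. HSF24, a heat shock factor gene, was lower, with a difference of -1.77 before NaCl and differed by 0.59 at 3 h. Of 59 redox enzyme genes, 2 were 2-fold higher and 5 lower, with a median of 0.05. The glutathione transferase genes GSTF1 and GSTF2 differed in opposite directions, by 1.19, 1.18 and 1.31 and by -1.31, -1.24 and -1.26.

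Nitrogen and metal transport lists held more lower than higher genes, as did all genes together. Of 17 nitrogen genes measured, 3 (17.6%) were 2-fold lower and 0 higher, beside 8.22% lower and 5.62% higher over all genes, and all 3 were ammonium transporter genes: AMT3-2, AMT3-3 (-2.91) and AMT2-3 (-1.62). The list's median was 0.03 before NaCl, so the list as a whole was level at that stage. Its median was -0.32 at 20 min and -0.52 at 3 h. At 20 min 3 members were 2-fold lower and 2 higher, beside 8.31% and 4.63% over all genes. At 3 h 6 were lower and 0 higher, beside 8.57% and 4.19%. Of 55 iron and metal genes, 9 (16.4%) were 2-fold lower and 3 (5.45%) higher, with a median of -0.16. The yellow stripe-like transporter genes YSL12 and YSL13 were lower, with differences of -2.36 and -2.11, and NRAMP5, a manganese and cadmium transporter gene, was lower, with a difference of -2.39. In transgenic leaves YSL13 read 660.0, 999 and 2321 before NaCl, at 20 min and at 3 h, and in nontransgenic leaves it read 2901, 2168 and 4663. The 2 probe sets of YSL12 disagreed, at -2.36 and 0.14. VIT1.2, a vacuolar iron transporter gene, was lower, with differences of -1.71 before NaCl and -6.66 at 20 min, and differed by -0.81 at 3 h.

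Counts in the other transport lists also stand beside 5.62% higher and 8.22% lower over all genes. Of 30 sodium and potassium transport genes, 2 (6.67%) were 2-fold higher and 3 (10.0%) lower, with a median of 0.05. The potassium transporter gene HAK1 was lower, with differences of -1.59, -0.64 and -1.22, on a probe set open to cross-hybridisation. Transgenic signals of HAK1 were 747, 1363 and 898 in order of stage, and nontransgenic signals were 2279.6, 2134 and 2112. The vacuolar cation exchanger genes CAX1b (-1.05) and CAX2 (-1.01) lay just past 2-fold. Of 27 aquaporin genes 3 were higher and 3 lower, among them PIP2-5 (1.60, 2.41 and 0.34) of the plasma membrane and NIP1-1 (-1.94, -1.94 and -2.61). Of 21 phosphate genes 2 were higher and 2 lower, and the phosphate transporter gene PHT1-1 was lower, with a difference of -2.32, though its other probe set gave -0.42.

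Hormone lists other than jasmonate held small counts, which stand beside 5.62% higher and 8.22% lower over all genes. Of 70 genes of abscisic acid synthesis and its PP2C phosphatases, 4 were 2-fold higher and 3 lower, with a median of 0.05. PP2C30, a phosphatase of abscisic acid signalling, was higher, with differences of 1.77, 0.90 and 0.23, and ABA8OX1, which inactivates the hormone, was lower, with a difference of -1.80. ABA8OX1 had signals of 179, 13361 and 249 in transgenic leaves before NaCl, at 20 min and at 3 h, against 661, 10325 and 927 in nontransgenic leaves. Of 11 ethylene genes, the synthesis genes ACS2 (-2.61, -0.70 and -2.50) and ACO1 (-1.98, -2.93 and -1.90) were the 2 lower ones and the receptor gene ERS2 (1.42) the 1 higher one. The signal of ACO1 was 156, 221 and 427 in transgenic leaves at the 3 stages, against 662, 1786 and 1643 in nontransgenic leaves.

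Of 37 gibberellin and cytokinin genes, 4 were higher and 3 lower. KAO, the ent-kaurenoic acid oxidase of gibberellin synthesis, was lower, with differences of -2.70, -3.24 and -2.42. In transgenic leaves KAO read 205, 115 and 192 before NaCl, at 20 min and at 3 h, and in nontransgenic leaves it read 1426, 1214 and 1098. LOGL9, a cytokinin-activating enzyme gene, was lower, with a difference of -1.75 before NaCl but differed by 0.26 and 0.25 later. Of 59 auxin genes, 3 were higher and 2 lower, with PIN5A, of the PIN auxin transporter family, at 1.30, 1.28 and 1.05 and the auxin-response repressor gene IAA19 at -1.84, -1.35 and -0.56.

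Cell wall genes had 15 of 63 members (23.8%) 2-fold lower and 3 (4.76%) higher, with a median of -0.14, beside 8.22% lower and 5.62% higher over all genes. EXPB4, a beta-expansin that loosens walls, was lower, with differences of -2.44, -2.99 and -2.09. Transgenic signals of EXPB4 were 196, 104 and 48.8 in order of stage, and nontransgenic signals were 1138, 942 and 260.1. XTH8, which cuts and rejoins xyloglucan, was lower, with differences of -2.12, -3.99 and -2.26, and the cellulose synthase gene CESA1 was lower, with differences of -2.22, -2.81 and -0.98, though the other probe set of CESA1 gave -0.44 before NaCl. XTH8 had signals of 295, 271 and 102 in transgenic leaves before NaCl, at 20 min and at 3 h, against 1336, 4546 and 547 in nontransgenic leaves. The mixed-linkage glucan synthase gene CSLF6 was lower, with a difference of -2.02, but its 3 probe sets ranged from -2.02 to 0.52.

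Of 58 sugar and starch genes, 8 (13.8%) were 2-fold higher and 4 (6.9%) lower, with a median of 0.16, beside 5.62% higher and 8.22% lower over all genes. Besides SWEET1A, the trehalose-phosphate phosphatase gene TPP9 (1.76, 1.29 and 0.81) and the starch synthase gene SSI (1.45, 1.28 and 1.26) were higher, both chosen after their values were seen. The monosaccharide transporter gene MST3 and the transporter gene SWEET4 were lower, with differences of -2.22 and -1.89. The signal of MST3 was 1991, 2334 and 3381 in transgenic leaves at the 3 stages, against 9305, 8206 and 8433 in nontransgenic leaves. Of 30 cytochrome P450 genes, 12 were 2-fold lower and 3 higher, with a median of -0.55; several of them stand in the lists above.

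Transcription factor lists were small, and counts in them stand beside 5.62% of all genes 2-fold higher and 8.22% 2-fold lower. AP2/ERF and DREB genes had 2 of 13 members 2-fold lower and 0 higher. But 8 of the 13 lay above 0, beside 8730 of 17905 over all genes, and the list's median was 0.24. The sign of this median depended on the processing, with a range from -0.20 to 0.37 under alternatives. DREB1A and DREB1B, activators of the cold and dehydration response, were lower, with differences of -1.57 and -1.95. In transgenic leaves DREB1A read 75.9, 763 and 156 before NaCl, at 20 min and at 3 h, and in nontransgenic leaves it read 256, 380.2 and 197. Thus DREB1A was lower before NaCl and higher at 20 min in transgenic leaves. MYB4 was the 1 lower gene of 10 MYB genes, at -1.49, 0.14 and -1.07, and its other probe set gave -0.25 before NaCl. NAC45 was the 1 lower gene of 8 NAC genes, and 3 of 33 bHLH and bZIP genes were lower, bZIP49 (-1.30), bZIP79 (-1.25) and bZIP83 (-1.09). Of 78 genes of calcium signalling, 5 (6.41%) were higher and 6 (7.69%) lower, close to the 5.62% and 8.22% over all genes. The list's members farthest from 0 were CIPK16 (1.71), whose probe set is open to cross-hybridisation, and CML14 (-1.83). Of 17 MAP kinase cascade genes MAPK2 (-1.58) and MAPK5 (-1.24) were lower.

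Counts in the remaining lists again stand beside 5.62% 2-fold higher and 8.22% 2-fold lower over all genes. Dehydrins and other LEA proteins, which accumulate in drying tissue, had 2 of 8 members (25%) higher and 1 (12.5%) lower. The dehydrin gene RAB16B was higher, with differences of 1.20, 0.83 and 1.40, and rab25 was 7.99-fold lower on the same scale before NaCl, with differences of -4.80 and -1.41 later. Transgenic signals of rab25 were 23.7, 5.55 and 105 in order of stage, and nontransgenic signals were 301, 585 and 307. LEA19 changed sign, with 1.09 before NaCl and -0.88 at 20 min. Besides METK3, the 6 genes of the methionine cycle and polyamines held SAM1, also for an S-adenosylmethionine synthase, which was lower, with differences of -1.14, -0.80 and -1.21. SAM1 had signals of 6246, 7859.7 and 5599 in transgenic leaves before NaCl, at 20 min and at 3 h, against 13769.8, 13728 and 12938 in nontransgenic leaves. Of 64 histone and DNA replication genes 3 (4.69%) were higher and 3 (4.69%) lower, with a median of 0.02, and the bright histone gene H2B.10 was lower, with differences of -1.37, -1.34 and -1.17. Of 43 MADS-box and flowering genes 1 was higher and 3 lower, all with signals under 100 before NaCl, and 0 of 7 receptor-like and wall-associated kinase genes passed 2-fold.

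Position on the chromosomes was not part of the comparison and is given as a description, over genes with a signal of at least 100. Chromosome 11 had the largest share of 4-fold different genes in both directions, with 20 of 576 higher (3.47%) and 26 lower (4.51%), beside 0.9% and 2.74% over all chromosomes. On the others, 0.281% (chromosome 9) to 1.80% (chromosome 6) were 4-fold higher and 1.73% (chromosome 3) to 3.76% (chromosome 12) lower. In 262 stretches of 50 neighbouring genes the median was 0 genes 4-fold higher and 1 lower. The most in any stretch was 5 higher and 7 lower.

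Of the 13336 genes with a signal of at least 100, 617 (4.63%) were 2-fold higher before NaCl and 1138 (8.53%) 2-fold lower. Runs of at least 3 neighbouring genes, each 2-fold different the same way, numbered 7 upwards and 24 downwards and held 22 and 80 genes. Whether these runs were more than such shares alone would give was not tested. The longest, of 6 genes, was the momilactone group on chromosome 4 with its neighbours ARP9 and LOC4335079, with genes under the signal limit, KSL4 among them, passed over. On chromosome 2 a run of 4 held PAL and PAL06 with LOC4330032 and LOC4330036, with differences from -2.43 to -5.49. On chromosome 1 LOC4326000, pinA and RBTI formed a run of 3, with differences from -7.61 to -4.99. The longest run upwards, of 4 unnamed genes on chromosome 10, held differences from 1.06 to 1.96. On chromosome 6 the run with HSP16.0 also held LOC4340663 and LOC4340664, at 1.43 and 1.15.

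The labelled tissue was checked against marker genes. Of 5 leaf mesophyll markers, 4 had signals of at least 100 in both genotypes, and the summed signal was 143235 in transgenic and 106785 in nontransgenic leaves before NaCl, 137337 and 131188 at 20 min, and 124243 and 136045 at 3 h. The median difference of these 5 markers before NaCl was 0.42, and 0 with quantile normalization. The order of the genotypes in the sum turned at 3 h, and the part of leaf content in the chloroplast results was not tested. Of 10 root markers, 4 lay under 16 in each genotype before NaCl, and the sum of 11282 in transgenic and 10892 in nontransgenic leaves came mostly from NAAT1 (9831 in transgenic and 9541 in nontransgenic leaves), an enzyme of iron uptake that is also active in shoots. The silicon transporter gene Lsi2 was at 1 on both arrays, but other root markers had signal. Lsi1 read 1101 in transgenic and 792 in nontransgenic leaves, SCR1 207 and 318, and IRT1 64.4 and 155. Root markers with a signal of at least 100 numbered 3 in transgenic and 4 in nontransgenic leaves.

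Seed and endosperm markers summed to 5313 in transgenic and 24694 in nontransgenic leaves before NaCl, to 4976 and 21543 at 20 min and to 5913 and 33311 at 3 h. The difference lay in pinA, while the storage protein genes GLUA2 (1976 in transgenic and 1751 in nontransgenic leaves) and GLB (2988 in transgenic and 4251 in nontransgenic leaves) were within 2-fold and 5 of 11 markers in transgenic and 6 in nontransgenic leaves lay under 16. Of 5 pollen and anther markers, 4 were near background on both arrays, and ANT, matched by its name alone, had 13302 in transgenic and 12952 in nontransgenic leaves.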

How the data were processed

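Leaf RNA was amplified with a 3′ kit, labelled with biotin and hybridised to 1 Affymetrix rice array per group, per the labels' protocols. Per the submitters' processing notes, MAS5 was used, and the deposited values are log2 signals per probe set from the authors. Which MAS5 version and target were used is not given in the sources used here. The values themselves show a common scaling, with a trimmed mean signal of 497.5 to 497.7 per array. Detection calls were not used here.

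The log2 was undone, and the log2 of signal plus 16 was used from there on. The transgenic array minus the nontransgenic array gave 1 difference per probe set, with python 3.11.15, numpy 2.4.6 and pandas 2.3.3. No test was run, since each group has 1 array of pooled plants, and this number limits the precision. Functions were checked on simulated data with known differences.

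The platform annotation gave 1 gene for 22436 probe sets, several for 95 and none for 34727, and the gene table of the RefSeq assembly ASM3414082v1 held all 22436 and gave current names. The array files carry no genome build, so no coordinates are printed. For each gene the probe set with the highest mean signal over 6 arrays was used. Of 47 gene lists matched on names, 42 were summarised, and 5 were dropped because too few members were measured, the name pattern took other families, or product text was needed. From the lists, 34 genes that share a name with another gene were removed. The comparison and the lists were chosen with earlier results of these data known. Genes were named by a rule: with a signal of at least 100 on 1 of the arrays before NaCl, the 15 largest differences in each direction with a curated name, the 6 largest without, the 4 largest of each list, and up to 5 in each direction seen before NaCl alone. Members of the chromosome groups, and list members beyond these, were named after their values were seen. Alternatives changed the added number, the scaling, the filter and the choice of probe set.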

Additional observations from a re-analysis of the deposited data

Results flagged for a closer look

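In 4 of the genes with a named difference, the genotypes differed at least 2-fold in 1 direction before NaCl and at least 2-fold in the other direction at a later stage. The difference between stages was not tested, since each stage has 1 array per genotype. DREB1B, an activator of the cold and dehydration response, differed by -1.95 before NaCl, 1.14 at 20 min and -0.90 at 3 h. Its signals were 84.7, 2432 and 81.3 in transgenic leaves in order of stage, against 373, 1091 and 165 in nontransgenic leaves. The jasmonate repressor gene JAZ9 differed by -1.44, 1.06 and -1.71, with signals of 387, 3612 and 156 in transgenic leaves, against 1081, 1722 and 547 in nontransgenic leaves. The glutathione transferase gene GSTU1 differed by 1.24, -1.83 and -1.08, with signals of 794, 128 and 176 in transgenic leaves, against 328, 498 and 389.6 in nontransgenic leaves. The laccase gene LAC19 differed by 3.09, -0.09 and -2.91, and 4 of its 6 signals lay under 16. Over all genes with a signal of at least 100, 11 of 617 that were 2-fold higher before NaCl were 2-fold lower at a later stage, and 6 of 1138 that were 2-fold lower were 2-fold higher at a later stage.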

How the results depend on the processing

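Counts over probe sets depended most on the added number. With 1 in place of 16, 11158 probe sets were 2-fold higher and 8612 lower in transgenic leaves. Of these, 3283 were higher again at 20 min and 2831 at 3 h, 3155 were lower again at 20 min and 3379 at 3 h, and 786 were 4-fold different before NaCl alone. With 64, the counts were 1229 higher and 1586 lower, with 680 and 537 higher again, 894 and 905 lower again, and 2 before NaCl alone. Only 43.7% of the 2-fold calls were then higher ones, against 56.1% with 16. Among the 28629 probe sets at or above the median mean signal, 2090 were higher and 2326 lower (47.3% higher), with 31 different before NaCl alone. Under 3 other scalings the counts stayed within 1.5 times the reported ones, at 4331 higher and 4511 lower (quantile, which turned the balance), 5529 and 3452 (equal 75th percentiles) and 4786 and 3889 (spike-ins). Of the list medians, 301 values under alternatives all moved by less than 1.5-fold, and the diterpenoid median ranged from -1.10 to -0.54 and the chlorophyll median from 0.65 to 1.07. Medians nearer to 0 could still change sign, as that of AP2/ERF and DREB factors did, with a range from -0.20 to 0.37. Quantile normalization moved the photosystem and antenna median from 0.52 to 0.16 and the leaf mesophyll marker median from 0.42 to 0. Of the named genes' differences under alternatives, 1048 values moved by less than 1.5-fold and 74 by more, which were 23 with 1 added, 34 with 64 added and 17 with the mean over a gene's probe sets. No named gene at least 2-fold different changed sign under these alternatives. No paired analysis was possible because each group has 1 array, and for the same reason no array could be left out. Signals near 16 limit what can be said of dim probe sets.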
